A study of Mus musculus with 12 samples.

Results

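The genes described here are 41 transcripts of T cells and natural killer (NK) cells, measured in dendritic cells that had been sorted from mouse kidney. They were chosen by gene symbol from the deposited table of 26121 genes: 24 were listed as T cell genes, 14 as NK cell genes and 3 (Rora, Il1rl1 and Cxcr6) as shared by T cells and innate lymphoid cells. A member was to be dropped if its log2 value lay below 0, that is below 1 count per 1000000 scaled reads (CPM), in more than 9 of the 12 libraries. No member reached that limit, so all 41 are described, and all 41 are among the 14180 genes that were tested. The closest to it were Tbx21, below 0 in 8 libraries, and Eomes, in 6.

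The libraries came from 6 wild-type male mice of 8 to 12 weeks. Of these, 3 mice were healthy and 3 had received nephrotoxic antiserum 7 days earlier, which sets off the immune kidney disease nephrotoxic nephritis. CD103+ and CD11b+ dendritic cells were taken from every mouse, which gave 4 groups of 3 libraries: healthy CD103+, healthy CD11b+, nephritic CD103+ and nephritic CD11b+. Leukocytes had been enriched with CD45 beads before the sort, a step that keeps lymphocytes as well, and the gates used in the sort are not given in the sources used here.

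A T cell reads antigen through its receptor, whose signal is carried into the cell by the CD3 chains and the zeta chain. The kinase Lck phosphorylates these chains, Zap70 docks on them, and the adaptor Lat passes the signal on, while CD4 or CD8 binds the presenting molecule and CD28 adds a second signal. NK cells carry no such receptor and weigh activating against inhibitory receptors, many of them lectins encoded side by side in the NK gene complex, before they release granzymes and perforin. In the nephritic kidney, T cells and dendritic cells meet, and a sorted dendritic cell sample can hold lymphocytes stuck to or sorted with the target cells. Some members are also made by other cells, among them Cd8a and Cd4 by subsets of mouse dendritic cells, and Gata3 by the distal nephron and collecting duct. The sets also overlap in the cells that make them. Nkg7, Gzma and Gzmb of the NK set, for example, are made by NK and cytotoxic T cells. The sums and counts of each set therefore describe gene lists and do not tell T cells from NK cells.

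Libraries held 11486182 to 26556814 reads, and 3 reads, the limit that a count of 0 allows, stood at 0.112 to 0.254 CPM. It covers only the error of counting: the libraries carry no molecular identifiers, so PCR copies of 1 molecule count as separate reads. The sorts differed as labelled: the cDC1 receptor Xcr1 averaged 350 and 1123 CPM in healthy and nephritic CD103+ libraries against 19.7 and 4.77 CPM in CD11b+ libraries, and Itgam, which encodes CD11b, averaged 1.75 and 6.89 CPM against 124 and 315 CPM. The libraries also differed in kidney tubule and leukocyte transcripts. The 15 tubule markers summed to 3.49% to 5.60% of the scaled reads of healthy CD103+ cells, 0.797% to 2.01% in healthy CD11b+, 0.385% to 0.460% in nephritic CD103+ and 0.400% to 0.668% in nephritic CD11b+ libraries. The mean log2 level of 30 pan-leukocyte genes ran from 5.78 to 6.79, 7.54 to 7.71, 7.91 to 7.98 and 7.95 to 7.97 in the same order. Within the healthy CD103+ group replicate 2 had the lowest leukocyte level and the most tubule transcripts, and replicate 3 had the highest leukocyte level and the fewest tubule transcripts. Each comparison was therefore also computed without either of them and with leukocyte scaling, in which every library is shifted to the same mean of the pan-leukocyte genes.

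T and NK cell transcripts were a small share of every library, and that share was lowest in healthy CD103+ cells. The 24 T cell members summed to 328, 312 and 456 CPM in healthy CD103+ libraries (replicates 1 to 3, the order used throughout), 1604, 1219 and 1185 CPM in healthy CD11b+, 795, 845 and 947 CPM in nephritic CD103+ and 915, 902 and 1040 CPM in nephritic CD11b+ libraries. The sums of the healthy CD11b+ libraries lay above those of all other groups, and the sums of the nephritic groups overlapped each other. The 14 NK cell members summed to 110, 72.0 and 106 CPM in healthy CD103+ libraries, 397, 433 and 423 CPM in healthy CD11b+, 365, 315 and 362 CPM in nephritic CD103+ and 281, 282 and 331 CPM in nephritic CD11b+ libraries. These sums too were highest in healthy CD11b+ libraries, and those of the nephritic groups overlapped. As shares of scaled reads, T cell members averaged 0.0365%, 0.134%, 0.0862% and 0.0952% in the 4 groups and NK cell members 0.00961%, 0.0418%, 0.0347% and 0.0298%. The pan-leukocyte mean of each library was also subtracted from the mean log2 value of its members. The T cell members then averaged -2.95, -2.42, -3.25 and -3.20 in the 4 groups and the NK cell members -5.00, -3.80, -4.39 and -4.71. On this measure healthy CD103+ libraries averaged lowest for the NK cell members but not for the T cell members. The part of tubule reads in the shares was not tested. In bulk libraries fewer cells of a type and less RNA per cell cannot be told apart.

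**Figure D1:**
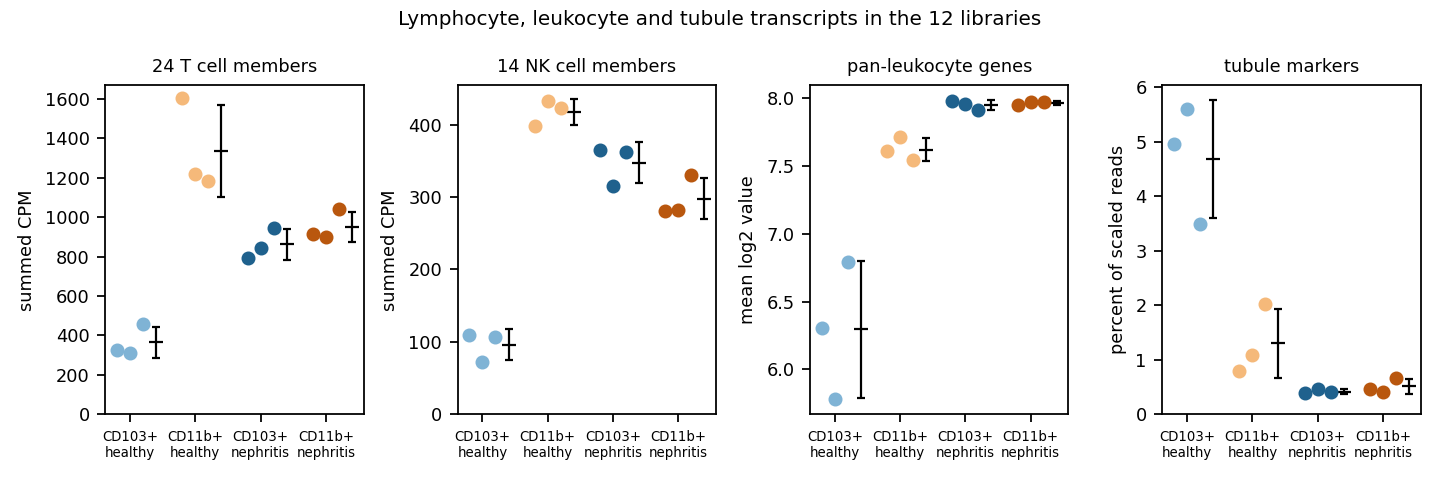
Summed CPM of the 24 T cell and 14 NK cell members, mean log2 value of the pan-leukocyte genes and percent of scaled reads in tubule markers. Points are libraries, bars are the mean and SD of 3 libraries; the leukocyte axis does not start at 0. Healthy CD103+ libraries are lowest in the first 3 panels and highest in tubule markers, 3.49% to 5.60%.

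Below, differences are log2 values ± SE from limma, a linear model fitted to the deposited log2 values of all 12 libraries, and a member is called higher or lower where its adjusted p is under 0.05 after Benjamini-Hochberg adjustment over 14180 genes. The comparisons share groups, so their results are not independent of each other. Between the healthy subsets 22 of 24 T cell members were higher in CD11b+ than in CD103+ cells and 0 were lower, where 25.4% of all genes tested were called higher and 24.5% lower. The median difference was 2.11 for the T cell members and 0.02 for all genes. Foxp3 and Gata3 were the members that did not pass. With leukocyte scaling, which moved the median of all genes from 0.02 to -1.307, 15 T cell members were higher and 1, Gata3, was lower, with a median of 0.79. Without replicate 2 of the healthy CD103+ group 21 were higher and 0 lower, and without its replicate 3 the counts were 23 and 0. Other cell types differed along with them: 9 of 10 B cell markers tested were higher in healthy CD11b+ cells, whose 11 B cell markers summed to 199 to 332 CPM against 43.9 to 51.1 CPM in healthy CD103+ cells, and 13 of 15 tubule markers were lower. Their part in the result was not tested.

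In CD103+ cells 20 of 24 T cell members were higher in nephritis than in health and 0 were lower, against 34.6% of all genes higher and 27.8% lower. The median difference was 1.51, beside 0.156 over all genes and 1.60 over the 29 pan-leukocyte genes tested, all of which were called higher. Cd8a, Cd8b1, Lef1 and Gata3 did not pass. All 15 tubule markers were lower. With leukocyte scaling the median of all genes moved to -1.497 and the T cell members split: 5 were higher (Ctla4, Il2ra, Icos, Cd6 and Cd28), 8 were lower (Lef1, Gata3, Cd8b1, Cd8a, Tcf7, Cd3d, Lat and Cd3g), and the median was -0.15. Without replicate 2 of the healthy CD103+ group 17 were higher and 0 lower, and without its replicate 3 the counts were 20 and 0. Whether the tubule and leukocyte levels set the rise was not tested beyond these values.

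In CD11b+ cells T cell members were called lower more often than higher in nephritis. Of 24 members, 12 were lower and 3 (Icos, Il2ra and Cd6) were higher, against 15.8% of all genes lower and 20.1% higher. Higher calls were thus no more frequent than among genes in general. The median difference was -0.55, beside 0.078 over all genes. With leukocyte scaling, under which the median of all genes was -0.265, 13 were lower and 1, Il2ra, was higher. Without replicate 1 of the healthy CD11b+ group, whose summed T cell level was the highest of all libraries, 7 were lower and 2 higher. B cell markers moved in the same direction, with 8 of 10 lower and sums of 68.9 to 92.6 CPM in nephritic against 199 to 332 CPM in healthy CD11b+ libraries. Tubule markers had 8 of 15 lower. Their part in the result was not tested.

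Between the nephritic subsets limma called 0 T cell members, against 9.66% of all genes higher and 8.21% lower in CD11b+ cells. At an unadjusted p under 0.05 it found 1 higher, Tcf7 (0.52 ± 0.20, limma adjusted p = 0.0996), and limma voom on the recovered reads called 0, with 2 at an unadjusted p under 0.05. The median difference was 0.16. When only the 6 nephritic libraries were fitted, 3 were called higher. With array weights, and without replicate 1 of the healthy CD11b+ group, 1 was called higher. These subsets were also closest in tubule share and leukocyte level, and leukocyte scaling left the median of all genes at -0.001 and the count at 0.

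**Figure D2:**
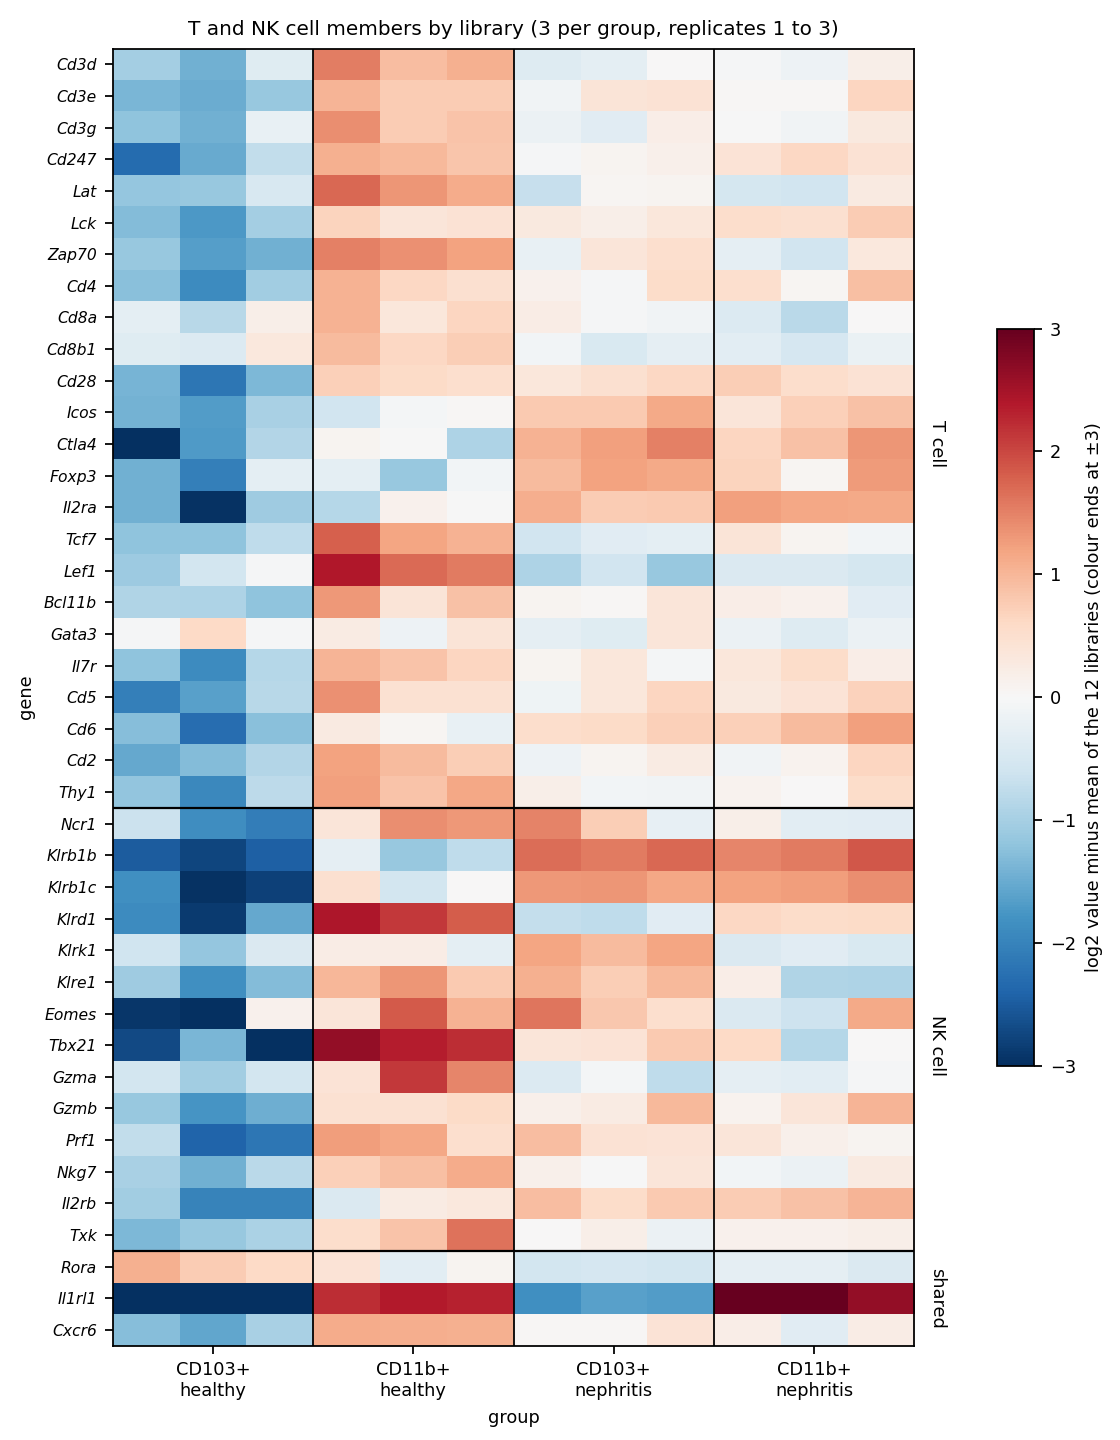
Deposited log2 value of each member in each library minus the mean of that member over the 12 libraries, with groups side by side and replicates 1 to 3 within each. Most members are blue in healthy CD103+ and red in healthy CD11b+ libraries; Rora runs the other way, and Ctla4, Il2ra and Klrb1b are highest in the nephritic groups.

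The 3 CD3 genes lie together on chromosome 9. In the GENCODE M21 annotation of GRCm38, Cd3g (ENSMUSG00000002033) spans 44969572 to 44980431 on the minus strand, Cd3d (ENSMUSG00000032094) spans 44981786 to 44987339 on the plus strand, and Cd3e (ENSMUSG00000032093) spans 44998740 to 45009627 on the minus strand. The RefSeq starts of Cd3g and Cd3d are 1355 bases apart and those of Cd3d and Cd3e 27825 bases apart. Their promoters are shown because the 3 genes moved together in most comparisons. The sequences are RefSeq's for GRCm38.p6, the 250 bases before the start site, 5′ to 3′ on the strand of the gene. The window of Cd3e partly overlaps its GENCODE span. Capitals mark matches on either strand to any of several short motifs. The core bound by ETS factors was searched as AGGAAG. The motif of GATA factors was searched as AGATAA. The motif of the TCF and LEF factors was searched as CTTTGA. The motif of RUNX factors was searched as TGTGGT. The search also held TCACACC, a T-box motif, which is in none of the 6 promoters printed here.
Cd3d, chr9:44981536-44981785, plus strand: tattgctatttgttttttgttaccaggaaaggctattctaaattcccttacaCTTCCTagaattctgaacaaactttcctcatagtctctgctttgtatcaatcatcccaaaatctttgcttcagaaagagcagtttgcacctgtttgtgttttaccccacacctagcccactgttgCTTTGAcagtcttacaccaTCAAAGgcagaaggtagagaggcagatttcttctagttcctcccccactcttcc
Cd3e, chr9:45009612-45009861, minus strand: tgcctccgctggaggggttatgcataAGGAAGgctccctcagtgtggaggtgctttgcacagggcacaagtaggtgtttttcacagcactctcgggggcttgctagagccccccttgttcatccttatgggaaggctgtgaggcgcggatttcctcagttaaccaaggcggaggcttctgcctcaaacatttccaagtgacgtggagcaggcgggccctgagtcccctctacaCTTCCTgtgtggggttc
Cd3g, chr9:44980432-44980681, minus strand: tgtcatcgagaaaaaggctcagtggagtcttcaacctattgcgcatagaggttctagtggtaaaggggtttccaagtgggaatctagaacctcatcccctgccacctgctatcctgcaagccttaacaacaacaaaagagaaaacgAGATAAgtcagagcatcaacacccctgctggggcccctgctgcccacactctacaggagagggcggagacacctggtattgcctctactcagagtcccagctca
Cd3d held 1 ETS match and 2 TCF matches, Cd3e held 2 ETS matches and Cd3g held 1 GATA match. Of the 32851 promoter windows in the table, 29.5% hold the ETS letters, 9.99% the GATA letters, 13.8% the TCF letters, 14.0% the RUNX letters and 3.33% the T-box letters. A match is a description of the letters only.

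Among the receptor chains, Cd3d stood at 15.0, 11.3 and 23.7 CPM in healthy CD103+ libraries, 88.4, 58.0 and 63.5 in healthy CD11b+, 23.4, 24.9 and 30.8 in nephritic CD103+ and 29.9, 27.3 and 34.5 in nephritic CD11b+ libraries. Cd3e stood at 8.14, 7.41 and 9.58 CPM, at 42.5, 35.5 and 35.7, at 19.4, 27.5 and 28.4, and at 21.5, 21.5 and 32.9 in the same group order. Cd3g stood at 17.02, 14.6 and 33.7 CPM, at 104, 67.3 and 71.4, at 35.1, 31.2 and 45.7, and at 39.4, 36.6 and 48.9. For all 3 genes the healthy CD11b+ libraries lay above every other library, and the nephritic groups overlapped. The differences between the healthy subsets were 2.11 ± 0.24 for Cd3d, 2.18 ± 0.21 for Cd3e and 1.97 ± 0.28 for Cd3g (limma adjusted p = 1.73e-05, 3.65e-06 and 8.63e-05). In nephritic CD103+ cells Cd3e rose 2.96-fold (1.57 ± 0.21, limma adjusted p = 2.18e-05) with no overlap of libraries. Cd3d (0.72 ± 0.24, limma adjusted p = 0.0186) and Cd3g (0.86 ± 0.28, limma adjusted p = 0.015) rose less, and for these libraries of the healthy and nephritic groups overlapped. Their calls ended without replicate 2 of the healthy CD103+ group (0.47 and 0.62), without its replicate 1 (0.68 and 0.73) and without nephritic CD103+ replicate 3 (0.60 and 0.70). With leukocyte scaling Cd3d and Cd3g were lower instead (-0.93 and -0.80) and Cd3e did not pass (-0.09).

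In CD11b+ cells the CD3 chains fell in nephritis, Cd3d by 1.18 ± 0.24, Cd3g by 0.94 ± 0.28 and Cd3e by 0.61 ± 0.21 on the log2 scale (limma adjusted p = 0.00217, 0.0169 and 0.0354). The healthy and nephritic libraries of these genes did not overlap there. The call of Cd3e ended when any 1 of 5 libraries was left out: healthy CD11b+ replicates 1, 2 and 3 (-0.52, -0.65 and -0.65) and nephritic CD11b+ replicates 1 and 2 (-0.51 and -0.50). That of Cd3g ended without healthy CD11b+ replicate 1 (-0.75) and without nephritic CD11b+ replicates 1 (-0.91) and 2 (-0.86).

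Cd247, the zeta chain, stood at 3.94, 6.82 and 11.8 CPM in healthy CD103+ libraries, 41.4, 38.4 and 34.8 in healthy CD11b+, 19.1, 21.0 and 21.9 in nephritic CD103+ and 26.3, 30.4 and 26.7 in nephritic CD11b+ libraries. It was higher in healthy CD11b+ cells (2.48 ± 0.29) and rose in nephritic CD103+ cells (1.59 ± 0.29, limma adjusted p = 0.000274), while in CD11b+ cells the difference was -0.46 ± 0.29 (limma adjusted p = 0.23). Of the exon length of Cd247, 60.3% is shared with other genes, mostly Pou2f1 on the opposite strand, and the handling of such reads is not given here. Its values may therefore hold reads of that gene.

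Lck, the kinase that starts receptor signalling, was the T cell member with the most reads per kilobase of exon in every group, at a mean of 14.2, 50.0, 42.8 and 53.6 CPM per kilobase. Its levels were 41.8, 31.5 and 51.1 CPM in healthy CD103+, 166, 135 and 139 in healthy CD11b+, 127, 117 and 132 in nephritic CD103+ and 150, 145 and 176 in nephritic CD11b+ libraries. It was higher in healthy CD11b+ than CD103+ cells (1.84 ± 0.17, limma adjusted p = 2.12e-06) and rose in nephritic CD103+ cells (1.62 ± 0.17, limma adjusted p = 2.19e-06). It was not called in nephritic CD11b+ cells, where the healthy and nephritic libraries overlapped (0.10 ± 0.17, limma adjusted p = 0.668). Its rise in CD103+ cells was lost with leukocyte scaling (-0.03).

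Zap70, the kinase that docks on phosphorylated CD3, and Lat, the adaptor it phosphorylates, fell in nephritic CD11b+ cells. Zap70 stood at 2.47, 1.73 and 2.001 CPM in healthy CD103+, 15.7, 14.1 and 12.6 in healthy CD11b+, 4.69, 7.07 and 7.81 in nephritic CD103+ and 4.52, 3.66 and 6.86 in nephritic CD11b+ libraries. It fell by 1.54 ± 0.30 in nephritic CD11b+ cells (limma adjusted p = 0.00145) and rose by 1.63 ± 0.30 in nephritic CD103+ cells (limma adjusted p = 0.000316). Lat stood at 10.3, 10.4 and 16.6 CPM, at 76.2, 57.7 and 49.9, at 14.2, 24.1 and 24.3, and at 16.0, 15.4 and 27.8 in the same group order. It fell by 1.67 ± 0.28 in CD11b+ cells (limma adjusted p = 0.000643). In CD103+ cells, where its libraries overlapped, it rose by 0.74 ± 0.28 (limma adjusted p = 0.0352), a call that ended without healthy replicates 1 (0.62) and 2 (0.63) and without nephritic replicates 2 (0.62) and 3 (0.61). Under leukocyte scaling the difference of Lat in CD103+ cells was -0.91 and that of Zap70 -0.03.

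Of the coreceptors, Cd4, that of helper T cells, stood at 10.9, 7.00 and 12.5 CPM in healthy CD103+, 53.4, 40.1 and 36.2 in healthy CD11b+, 28.5, 25.4 and 38.1 in nephritic CD103+ and 37.1, 27.0 and 48.5 in nephritic CD11b+ libraries. It rose in nephritic CD103+ cells (1.61 ± 0.26, limma adjusted p = 0.000113, and -0.04 with leukocyte scaling) and was not called in CD11b+ cells (-0.23 ± 0.26, limma adjusted p = 0.525). Cd8a, a chain of the coreceptor of cytotoxic T cells, stood at 8.28, 5.69 and 11.5 CPM, at 20.9, 12.7 and 15.9, at 11.8, 9.78 and 9.43, and at 7.60, 5.71 and 10.2. It was not called in CD103+ cells (0.34 ± 0.29, limma adjusted p = 0.33) and fell in CD11b+ cells (-1.08 ± 0.29, limma adjusted p = 0.0109), a call that ended without nephritic CD11b+ replicate 2 (-0.87). Cd8b1, the partner chain, stood at 10.7, 10.5 and 17.2 CPM, at 26.6, 21.1 and 23.1, at 13.1, 10.0 and 11.5, and at 11.1, 9.80 and 12.0. It fell by 1.10 ± 0.21 in CD11b+ cells (limma adjusted p = 0.00147) and was at -0.12 ± 0.21 in CD103+ cells (limma adjusted p = 0.645). Between the healthy subsets Cd8a and Cd8b1 had smaller differences (0.98 ± 0.29 and 0.92 ± 0.21) than Cd4 (2.11 ± 0.26). They turned to -0.34 and -0.41 with leukocyte scaling, where Cd4 stayed higher (0.78), and that of Cd8a was not called without healthy CD103+ replicate 2 (0.73) or healthy CD11b+ replicate 1 (0.80). Whether Cd8a and Cd8b1 differed from Cd4 in these responses was not tested.

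The costimulatory and checkpoint members Ctla4, Icos and Cd28 rose in nephritic CD103+ cells. Ctla4, the inhibitory receptor that competes with CD28, stood at 2.20, 6.23 and 11.2 CPM in healthy CD103+, 21.6, 20.3 and 10.7 in healthy CD11b+, 41.8, 48.1 and 58.0 in nephritic CD103+ and 31.8, 37.3 and 50.8 in nephritic CD11b+ libraries. Every nephritic library lay above every healthy one. The rise was 9.07-fold in CD103+ cells (3.18 ± 0.46, limma adjusted p = 7.29e-05) and fell to a log2 difference of 2.55 without healthy CD103+ replicate 1, its lowest library. In CD11b+ cells the difference was 1.22 ± 0.46 (limma adjusted p = 0.0566). That in CD11b+ cells was called, with the same difference of 1.22, when healthy CD103+ replicate 1 or 3 was left out of the fit. Icos, an inducible relative of CD28, stood at 13.2, 11.0 and 17.8 CPM, at 23.5, 33.9 and 36.0, at 60.9, 60.3 and 77.3, and at 45.6, 57.7 and 65.1. It rose in CD103+ cells (2.26 ± 0.21, limma adjusted p = 1.27e-06) and in CD11b+ cells (0.86 ± 0.21, limma adjusted p = 0.0071), and here too all nephritic libraries lay above all healthy ones. Cd28, the main costimulatory receptor, stood at 30.4, 17.7 and 31.5 CPM, at 131, 118 and 113, at 101, 112 and 123, and at 134, 115 and 108. It rose 4.32-fold in CD103+ cells (2.11 ± 0.19, limma adjusted p = 8.82e-07) and was at -0.02 ± 0.19 in CD11b+ cells. Leukocyte scaling left the rises of Ctla4 (1.53), Icos (0.60) and Cd28 (0.46) in CD103+ cells past the threshold, and that of Icos in CD11b+ cells did not (0.52).

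Foxp3 and Il2ra mark regulatory T cells, and Il2ra, the alpha chain of the interleukin-2 receptor, is also made by other activated leukocytes. Foxp3 stood at 1.47, 0.955 and 3.27 CPM in healthy CD103+, 3.30, 1.83 and 3.78 in healthy CD11b+, 7.82, 9.36 and 8.86 in nephritic CD103+ and 6.43, 4.17 and 9.89 in nephritic CD11b+ libraries. All nephritic libraries lay above all healthy ones. The healthy groups overlapped, and their difference (0.76 ± 0.45, limma adjusted p = 0.174) was called without healthy CD103+ replicate 3 (1.24). Foxp3 rose in CD103+ cells (2.36 ± 0.45, limma adjusted p = 0.000449), and in CD11b+ cells the difference was 1.17 ± 0.45 (limma adjusted p = 0.0565). That in CD11b+ cells was called without healthy CD103+ replicates 2 or 3 (1.17 each) and without nephritic CD11b+ replicate 2 (1.48). With leukocyte scaling the difference in CD103+ cells was 0.70 and did not pass. Exons of Foxp3 overlap other genes over 31.5% of their length. Il2ra stood at 2.80, 0.955 and 3.64 CPM, at 4.23, 8.41 and 7.61, at 16.3, 13.0 and 13.2, and at 18.0, 17.3 and 16.9. It rose 6.50-fold in CD103+ cells (2.70 ± 0.40, limma adjusted p = 6.09e-05) and 2.68-fold in CD11b+ cells (1.42 ± 0.40, limma adjusted p = 0.0147), with no overlap between healthy and nephritic libraries. The second call ended without healthy CD11b+ replicate 1 (1.12).

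Tcf7 and Lef1 encode the related factors TCF-1 and LEF-1, which are high in naive and central memory T cells. Lef1 stood at 21.1, 31.0 and 44.0 CPM in healthy CD103+, 239, 147 and 134 in healthy CD11b+, 23.9, 30.5 and 20.4 in nephritic CD103+ and 33.3, 33.5 and 31.4 in nephritic CD11b+ libraries. The healthy CD11b+ libraries lay far above the other 9, which ran from 20.4 to 44.0 CPM. Lef1 fell 5.11-fold in nephritic CD11b+ cells (-2.35 ± 0.26, limma adjusted p = 3.13e-05), the smallest adjusted p of any T cell member in that comparison, and was at -0.32 ± 0.26 in CD103+ cells (limma adjusted p = 0.301). Exons of Lef1 overlap another gene over 13.8% of their length. Tcf7 stood at 20.2, 20.3 and 27.5 CPM, at 162, 105 and 96.1, at 31.1, 36.6 and 38.3, and at 60.5, 49.0 and 43.8. It was 5.25-fold higher in healthy CD11b+ than CD103+ cells (2.39 ± 0.20, limma adjusted p = 1.26e-06) and fell in nephritic CD11b+ cells (-1.22 ± 0.20, limma adjusted p = 0.000543). In CD103+ cells it rose by 0.65 ± 0.20 (limma adjusted p = 0.0128) and fell by 1.004 with leukocyte scaling.

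Gata3 did not follow the other T cell members. This factor of T cells and type 2 lymphocytes stood at 42.5, 65.8 and 43.0 CPM in healthy CD103+, 51.9, 39.3 and 57.5 in healthy CD11b+, 36.3, 34.1 and 56.6 in nephritic CD103+ and 38.5, 33.8 and 39.0 in nephritic CD11b+ libraries. The healthy groups overlapped, and no comparison called it: the differences were -0.01 ± 0.22 between the healthy subsets, -0.26 ± 0.22 in CD103+ and -0.40 ± 0.22 in CD11b+ cells (limma adjusted p = 0.968, 0.321 and 0.17). Its highest library, healthy CD103+ replicate 2, was also the library with the highest tubule share. Nephritic CD103+ replicate 3 stood at 56.6 CPM with a tubule share of 0.402%, and healthy CD103+ replicate 1 at 42.5 CPM with 4.96%. The part of kidney epithelium in the level of Gata3 was not tested. With leukocyte scaling Gata3 was lower in healthy CD11b+ than CD103+ cells (-1.34) and lower in nephritic than healthy CD103+ cells (-1.91).

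The 6 other T cell members are lineage and surface proteins. In CD103+ cells all 6 rose in nephritis: Cd6 by 2.22 ± 0.25, Cd5 by 1.79 ± 0.32, the interleukin-7 receptor Il7r by 1.45 ± 0.22, the adhesion protein Cd2 and the surface glycoprotein Thy1 by 1.30 each (SE 0.21 and 0.29) and the T lineage factor Bcl11b by 1.17 ± 0.24. Of these, Cd6, a modulator of receptor signalling, stood at 13.8, 6.87 and 14.1 CPM in healthy CD103+, 40.6, 35.2 and 28.8 in healthy CD11b+, 48.9, 50.4 and 55.1 in nephritic CD103+ and 55.0, 64.9 and 79.4 in nephritic CD11b+ libraries. It was the only 1 of the 6 that also rose in CD11b+ cells (0.93 ± 0.25, limma adjusted p = 0.00984; 0.58 and not called with leukocyte scaling). In the same cells Bcl11b, Thy1 and Cd2 fell by 0.87 ± 0.24, 0.85 ± 0.29 and 0.75 ± 0.21, while Il7r and Cd5 were at -0.48 ± 0.22 and -0.31 ± 0.32 and did not pass. Il7r was called lower there without healthy CD103+ replicates 2 or 3 (-0.48 each) and with leukocyte scaling (-0.82). These 3 falls were among the calls that ended without healthy CD11b+ replicate 1, at -0.65, -0.78 and -0.64. They also ended without nephritic CD11b+ replicate 3 for Bcl11b (-0.71), without nephritic replicates 1 and 2 for Cd2 (-0.59 and -0.70) and for Thy1 (-0.80 and -0.74), and without healthy CD11b+ replicate 3 for Thy1 (-0.81). With leukocyte scaling the differences in CD103+ cells were 0.57 for Cd6, 0.14 for Cd5, -0.21 for Il7r, -0.35 for Cd2 and Thy1 and -0.48 for Bcl11b, and of these Cd6 passed.

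**Figure D3:**
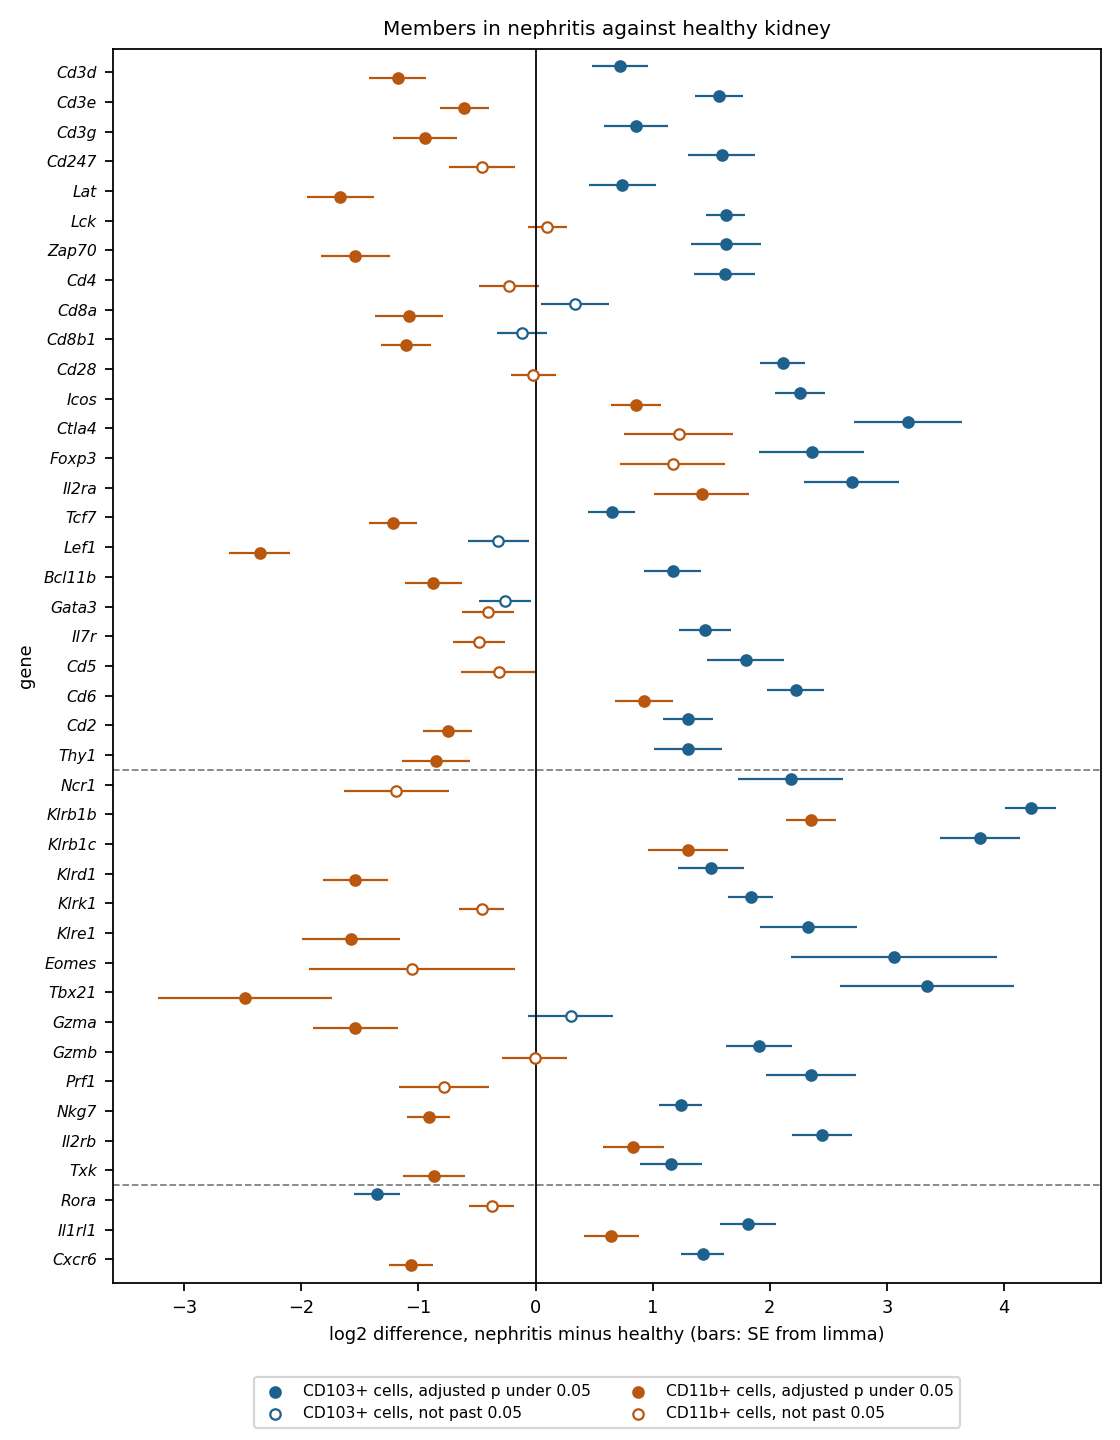
Log2 difference between nephritis and health for each member in CD103+ cells (blue) and CD11b+ cells (orange), 3 against 3 libraries. Bars are the SE from the limma fit of all 12 libraries, and filled points have an adjusted p under 0.05. Most members lie right of 0 in CD103+ cells, Klrb1b farthest at 4.23, and most T cell members lie left of 0 in CD11b+ cells, Lef1 farthest at -2.35. With leukocyte scaling 8 T cell members are called lower in CD103+ cells.

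The NK cell members were higher in healthy CD11b+ than in healthy CD103+ cells in 14 of 14 cases. Among all genes 25.4% were higher and 24.5% lower, and the median difference was 2.30 beside 0.02 over all genes. Tbx21, counted among the 14, passed the filter only through the healthy CD11b+ group. Its calls against that group, here and in nephritic CD11b+ cells, are not independent of the filter. In CD103+ cells 13 of 14 rose in nephritis and 0 fell, against 34.6% of all genes higher and 27.8% lower. Their median was 2.26 beside 0.156 over all genes, and Gzma was the member that did not pass. In CD11b+ cells 6 were lower in nephritis and 3 (Klrb1b, Klrb1c and Il2rb) were higher, against 15.8% of all genes lower and 20.1% higher, with a median of -0.89 beside 0.078 over all genes. The share called higher was close to that among genes in general. Between the nephritic subsets 1 was higher in CD11b+ cells (Klrd1) and 2 were lower (Klrk1 and Klre1), against 9.66% of all genes higher and 8.21% lower. With leukocyte scaling the counts were 9 higher and 1 lower between the healthy subsets, 3 and 1 in CD103+ cells, 1 and 8 in CD11b+ cells and 1 and 2 between the nephritic subsets. Without replicate 2 or replicate 3 of the healthy CD103+ group the first 2 comparisons gave counts of 14 and 13 higher.

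The lectin receptors of the NK gene complex lie on chromosome 6. In GENCODE M21, Klrb1c (ENSMUSG00000030325) spans 128778485 to 128789215, Klrb1b (ENSMUSG00000079298) spans 128813706 to 128826331 and Klrk1 (ENSMUSG00000030149) spans 129610323 to 129623864, all on the minus strand. The RefSeq starts of Klrb1c and Klrb1b are 37674 bases apart and those of Klrb1b and Klrk1 797549 bases apart. Promoters of these 3 are shown because Klrb1b and Klrb1c rose in nephritis in both subsets while Klrk1 rose in CD103+ cells and was not called in CD11b+ cells. Build, window and capitals are as for the CD3 genes. The window of Klrb1c lies before its RefSeq start but inside the GENCODE span given above, and that of Klrb1b partly overlaps its span. Klrb1b has 2 entries among the RefSeq promoters, and the first listed is shown.
Klrb1b, chr6:128826316-128826565, minus strand: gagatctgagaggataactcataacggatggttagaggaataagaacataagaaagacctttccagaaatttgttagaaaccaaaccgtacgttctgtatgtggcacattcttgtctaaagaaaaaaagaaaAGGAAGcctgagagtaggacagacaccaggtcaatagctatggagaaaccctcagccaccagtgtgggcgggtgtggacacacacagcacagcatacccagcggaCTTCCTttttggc
Klrb1c, chr6:128788642-128788891, minus strand: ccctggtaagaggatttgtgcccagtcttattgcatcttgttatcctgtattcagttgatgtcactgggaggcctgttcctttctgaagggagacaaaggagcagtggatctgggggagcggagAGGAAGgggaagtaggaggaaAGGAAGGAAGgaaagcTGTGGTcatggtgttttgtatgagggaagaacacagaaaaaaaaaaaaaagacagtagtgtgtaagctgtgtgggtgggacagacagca
Klrk1, chr6:129623865-129624114, minus strand: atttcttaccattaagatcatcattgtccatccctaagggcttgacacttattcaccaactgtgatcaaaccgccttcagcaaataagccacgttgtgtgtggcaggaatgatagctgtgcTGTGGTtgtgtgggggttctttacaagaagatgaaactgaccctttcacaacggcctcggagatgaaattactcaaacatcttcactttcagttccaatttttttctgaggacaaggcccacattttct
Klrb1b held 2 ETS matches, Klrb1c held 3 ETS matches, of which 2 overlap, and 1 RUNX match, and Klrk1 held 1 RUNX match. Klrb1b, Klrb1c and their neighbours Klrb1a and Klrb1f are close copies of each other, exons of Klrb1b and Klrb1c overlap another gene model over 26.9% and 14.0% of their length, and reads may have been split between copies, so values of these genes are uncertain.

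Klrb1b, an inhibitory receptor of NK cells, had the largest rise of all members. It stood at 2.60, 2.18 and 2.73 CPM in healthy CD103+, 12.4, 6.83 and 8.79 in healthy CD11b+, 47.8, 44.4 and 49.7 in nephritic CD103+ and 41.6, 44.4 and 54.4 in nephritic CD11b+ libraries. All 6 nephritic libraries lay above all 6 healthy ones. It rose 18.7-fold in CD103+ cells (4.23 ± 0.22, limma adjusted p = 2.98e-08) and 5.11-fold in CD11b+ cells (2.35 ± 0.22, limma adjusted p = 8.51e-06). Both rises passed with leukocyte scaling (2.57 and 2.01). Klrb1c, which encodes the NK1.1 antigen, stood at 1.20, 0.546 and 0.606 CPM, at 6.17, 3.02 and 4.43, at 10.9, 11.1 and 9.86, and at 10.3, 10.6 and 11.6. It rose 13.9-fold in CD103+ cells (3.80 ± 0.34, limma adjusted p = 7.95e-07; 2.14 with leukocyte scaling) and 2.47-fold in CD11b+ cells (1.30 ± 0.34, limma adjusted p = 0.00902), the second of which was not called with leukocyte scaling (0.96).

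Klrd1 encodes CD94, the partner of the NKG2 receptors. It stood at 5.87, 2.96 and 7.58 CPM in healthy CD103+, 118, 95.6 and 77.3 in healthy CD11b+, 13.3, 13.0 and 17.4 in nephritic CD103+ and 33.7, 32.2 and 32.6 in nephritic CD11b+ libraries. No group overlapped another. It was 18.7-fold higher in healthy CD11b+ than CD103+ cells (4.22 ± 0.28, limma adjusted p = 1.11e-07) and 2.27-fold higher in nephritic CD11b+ than CD103+ cells (1.19 ± 0.28, limma adjusted p = 0.00808). In nephritis it rose in CD103+ cells (1.50 ± 0.28, limma adjusted p = 0.000377; -0.15 with leukocyte scaling) and fell in CD11b+ cells (-1.54 ± 0.28, limma adjusted p = 0.000978).

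Klrk1, the activating receptor NKG2D, had the opposite order between the nephritic subsets. Its levels were 23.8, 16.1 and 26.7 CPM in healthy CD103+, 42.0, 41.8 and 29.2 in healthy CD11b+, 81.7, 70.0 and 82.0 in nephritic CD103+ and 26.6, 28.3 and 26.1 in nephritic CD11b+ libraries. The nephritic CD103+ libraries were the highest of all. Klrk1 was 2.88-fold lower in nephritic CD11b+ than CD103+ cells (-1.52 ± 0.19, limma adjusted p = 5.89e-05) and rose 3.57-fold in nephritic CD103+ cells (1.84 ± 0.19, limma adjusted p = 2.95e-06). With leukocyte scaling the first held (-1.54) and the second did not pass (0.18), and Klrk1 turned lower in healthy CD11b+ than CD103+ cells (0.77 ± 0.19 before, -0.55 after). In CD11b+ cells the difference in nephritis was -0.46 ± 0.19 (limma adjusted p = 0.0777), and it was called without healthy CD103+ replicate 2 (-0.46), without healthy CD11b+ replicate 3 (-0.63) and with leukocyte scaling (-0.80). Klre1, another lectin of the complex, stood at 0.868, 0.5003 and 0.727 CPM, at 3.72, 4.65 and 3.19, at 3.89, 3.12 and 3.67, and at 2.13, 0.980 and 0.974. It was lower in nephritic CD11b+ than CD103+ cells (-1.47 ± 0.42, limma adjusted p = 0.0242). That call ended without any 1 of the nephritic CD103+ replicates 1, 2 and 3 (-1.40, -1.56 and -1.44) or without nephritic CD11b+ replicates 2 and 3 (-1.29 and -1.28).

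Ncr1 encodes NKp46, a receptor found on NK cells. It stood at 6.08, 2.59 and 2.24 CPM in healthy CD103+, 12.2, 25.1 and 23.5 in healthy CD11b+, 26.7, 15.7 and 8.03 in nephritic CD103+ and 10.6, 7.62 and 7.49 in nephritic CD11b+ libraries. The nephritic groups overlapped, and the nephritic CD103+ libraries were spread over a more than 3-fold range. It rose in CD103+ cells (2.18 ± 0.45, limma adjusted p = 0.000823; 0.53 and not called with leukocyte scaling), and in CD11b+ cells the difference was -1.19 ± 0.45 (limma adjusted p = 0.0528). It was called lower in CD11b+ cells with leukocyte scaling (-1.53), without healthy CD11b+ replicate 1 (-1.52), and with the same -1.19 without healthy CD103+ replicate 1 or nephritic CD103+ replicates 1 or 3.

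Eomes and Tbx21 encode the factors EOMES and T-bet, which set the NK cell programme, and both were near the limit of counting in healthy CD103+ cells. Eomes had 1, 1 and 13 reads there, or 0.0668, 0.0455 and 0.788 CPM, and stood at 0.930, 2.67 and 1.53 CPM in healthy CD11b+, 2.27, 1.30 and 1.05 in nephritic CD103+ and 0.532, 0.469 and 1.65 in nephritic CD11b+ libraries. Tbx21 had 1, 5 and 0 reads in healthy CD103+ libraries, or 0.0668, 0.227 and 0 CPM, against 3.97, 3.32 and 3.01 CPM in healthy CD11b+, 0.808, 0.832 and 1.09 in nephritic CD103+ and 0.957, 0.341 and 0.637 in nephritic CD11b+ libraries. Fitted differences of such low levels depend on the offset of 0.5 reads in the deposited values. On that scale Tbx21 was higher in healthy CD11b+ than CD103+ cells (5.24 ± 0.74, limma adjusted p = 9.1e-05) and fell in nephritic CD11b+ cells (-2.48 ± 0.74, limma adjusted p = 0.019), a call that ended without nephritic CD11b+ replicate 2 (-2.10). Outside the healthy CD11b+ group only nephritic CD103+ replicate 3 had a log2 value of Tbx21 above 0. Tbx21 thus passed the filter only through the group in which it was highest, and its calls against that group are not independent of the filter. Eomes was higher in healthy CD11b+ cells (3.17 ± 0.88, limma adjusted p = 0.00881) and was at -1.06 ± 0.88 in nephritic CD11b+ cells (limma adjusted p = 0.371). Without healthy CD103+ replicate 2 or 3 the difference between the healthy subsets was 5.97 or 4.44 for Tbx21 and 2.48 or 4.28 for Eomes, called each time.

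Of the cytotoxic granule members, Nkg7, a granule protein of NK and cytotoxic T cells, had the most reads per kilobase of all 41 members in every group, at a mean of 40.7, 160, 95.1 and 85.0 CPM per kilobase. Nkg7 stood at 39.1, 28.5 and 44.1 CPM in healthy CD103+, 127, 144 and 167 in healthy CD11b+, 85.8, 76.3 and 98.6 in nephritic CD103+ and 72.3, 68.2 and 92.6 in nephritic CD11b+ libraries. It rose in CD103+ cells (1.24 ± 0.18, limma adjusted p = 5.15e-05; -0.42 with leukocyte scaling) and fell in CD11b+ cells (-0.91 ± 0.18, limma adjusted p = 0.00176). Gzma and Gzmb, the granzymes that NK and cytotoxic T cells inject into targets, differed. Gzma stood at 4.41, 3.14 and 4.43 CPM, at 8.62, 28.1 and 17.8, at 4.90, 6.19 and 3.80, and at 5.32, 5.20 and 6.30, so that the healthy CD11b+ libraries were highest and spread over a more than 3-fold range. It was at 0.30 ± 0.36 in CD103+ cells (limma adjusted p = 0.487; -1.35 and called with leukocyte scaling) and fell in CD11b+ cells (-1.54 ± 0.36, limma adjusted p = 0.00505). Gzmb stood at 4.87, 3.14 and 3.88 CPM, at 14.8, 14.7 and 16.0, at 11.9, 12.7 and 21.2, and at 11.5, 13.7 and 21.7. It rose in CD103+ cells (1.91 ± 0.28, limma adjusted p = 5e-05; 0.26 and not called with leukocyte scaling) and was at -0.01 ± 0.28 in CD11b+ cells, where the groups overlapped. The pore-forming Prf1 rose in CD103+ cells (2.35 ± 0.38; 0.70 and not called with leukocyte scaling) and was at -0.78 ± 0.38 in CD11b+ cells (limma adjusted p = 0.127), a difference that was called without healthy CD103+ replicate 1 (-0.78).

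Il2rb, the receptor chain through which NK cells sense interleukins 2 and 15, rose in both subsets. It stood at 14.0, 7.19 and 7.15 CPM in healthy CD103+, 21.5, 34.5 and 36.3 in healthy CD11b+, 55.4, 42.4 and 50.0 in nephritic CD103+ and 48.8, 53.7 and 58.8 in nephritic CD11b+ libraries. The differences were 2.45 ± 0.26 in CD103+ cells (limma adjusted p = 2.92e-06; 0.79 and called with leukocyte scaling) and 0.84 ± 0.26 in CD11b+ cells (limma adjusted p = 0.0215; 0.49 and not called). The call in CD11b+ cells ended without healthy CD11b+ replicate 1 (0.60) and without nephritic CD11b+ replicates 2 (0.83) and 3 (0.77). Txk, a Tec family kinase, stood at 3.20, 3.73 and 4.24 CPM, at 11.9, 15.1 and 25.7, at 8.28, 9.42 and 7.38, and at 8.98, 9.03 and 9.37. It rose in CD103+ cells (1.16 ± 0.26; -0.49 with leukocyte scaling) and fell in CD11b+ cells (-0.87 ± 0.26, limma adjusted p = 0.0206). The fall was not called without healthy CD11b+ replicate 3 (-0.56) or nephritic CD11b+ replicates 1 or 2 (-0.86 each).

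The 3 shared members went separate ways. Il1rl1, which encodes the interleukin-33 receptor ST2, separated the sorts. It stood at 0.668, 0.637 and 1.09 CPM in healthy CD103+, 43.3, 48.4 and 46.4 in healthy CD11b+, 2.57, 2.97 and 2.88 in nephritic CD103+ and 74.5, 86.1 and 58.4 in nephritic CD11b+ libraries. All CD11b+ libraries lay far above all CD103+ libraries. It was 57.3-fold higher in CD11b+ cells in health (5.84 ± 0.24, limma adjusted p = 1.1e-09) and 25.5-fold higher in nephritis (4.67 ± 0.24, limma adjusted p = 9.56e-09), differences that leukocyte scaling kept at 4.51 and 4.66. In CD103+ cells it rose by 1.81 ± 0.24 (0.16 and not called with leukocyte scaling), and in CD11b+ cells by 0.65 ± 0.24 (limma adjusted p = 0.0456). The call in CD11b+ cells ended in 8 of the 12 fits that left out 1 library, which were those without any nephritic CD103+ or healthy CD11b+ library or without nephritic CD11b+ replicate 1 or 2, with differences of 0.52 to 0.69.

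Rora, a nuclear receptor needed by type 2 innate lymphoid cells, ran against the other members. It stood at 35.2, 28.7 and 25.7 CPM in healthy CD103+, 22.4, 13.5 and 17.8 in healthy CD11b+, 11.6, 11.8 and 11.4 in nephritic CD103+ and 14.0, 14.0 and 12.6 in nephritic CD11b+ libraries. It was lower in healthy CD11b+ than CD103+ cells (-0.76 ± 0.20, limma adjusted p = 0.00588) and fell in nephritic CD103+ cells (-1.35 ± 0.20, limma adjusted p = 4.57e-05), in the group order of the tubule share. In CD11b+ cells the difference was -0.38 ± 0.20 (limma adjusted p = 0.15) and was called without healthy CD11b+ replicate 2 (-0.57). Within the healthy groups the orders of Rora and tubule share were not the same. Healthy CD103+ replicate 1 stood at 35.2 CPM with a tubule share of 4.96%, and replicate 2 at 28.7 CPM with 5.60%. Healthy CD11b+ replicate 1 stood at 22.4 CPM with 0.797%, and replicate 3 at 17.8 CPM with 2.01%. The part of other kidney cells in the level of Rora was not tested. Cxcr6, the receptor of the chemokine CXCL16, stood at 24.5, 20.1 and 30.5 CPM, at 129, 126 and 125, at 61.5, 60.6 and 78.8, and at 67.9, 46.8 and 70.0. Like the CD3 chains it was higher in healthy CD11b+ cells (2.36 ± 0.18, limma adjusted p = 5.8e-07), rose in CD103+ cells (1.43 ± 0.18; -0.23 with leukocyte scaling) and fell in CD11b+ cells (-1.06 ± 0.18, limma adjusted p = 0.000718).

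The responses of the subsets to nephritis were then compared with each other in 1 model. The response of CD11b+ cells was lower than that of CD103+ cells for 21 of 24 T cell members and higher for 0, against 17.7% of all genes lower and 17.7% higher, 35.4% in either direction. It was lower for 14 of 14 NK cell members, among them Tbx21, whose call is not independent of the filter. The median differences of the responses were -1.91 and -2.40, beside -0.067 over all genes. By adjusted p the leading T cell members were Cd28 (-2.13 ± 0.27, limma adjusted p = 0.000256), Zap70 (-3.17 ± 0.42, limma adjusted p = 0.000308) and Cd3e (-2.17 ± 0.29, limma adjusted p = 0.000333). The leading NK cell members were Klrk1 (-2.30 ± 0.27, limma adjusted p = 0.000199), Nkg7 (-2.15 ± 0.26, limma adjusted p = 0.000201) and Klrd1 (-3.04 ± 0.40, limma adjusted p = 0.000277). Foxp3, Il2ra and Gata3 did not pass (-1.19 ± 0.64, -1.28 ± 0.57 and -0.14 ± 0.31). Il2ra was called without healthy CD103+ replicate 3 (-1.66) and without healthy CD11b+ replicate 1 (-1.58), and Foxp3 without healthy CD103+ replicate 3 (-1.67). With leukocyte scaling, which moved the median of all genes from -0.067 to 1.244, the response of CD11b+ cells was lower for 3 T cell members (Zap70, Lat and Cd28, at -1.85, -1.10 and -0.82) and 8 NK cell members, among them Klrd1 (-1.73), Klrk1 (-0.99) and Nkg7 (-0.84).

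A description that no scaling of a library can change is the log2 value of a member minus the mean log2 value of Cd3d, Cd3e and Cd3g in the same library. It carries no test. On this measure Klrb1b stood at -2.47 ± 0.32 in healthy CD103+ libraries (SD, n = 3), -2.70 ± 0.19 in healthy CD11b+, 0.71 ± 0.20 in nephritic CD103+ and 0.56 ± 0.10 in nephritic CD11b+ libraries. Ctla4 stood at -1.37 ± 0.99, -1.81 ± 0.50, 0.76 ± 0.03 and 0.32 ± 0.18, and Icos at -0.02 ± 0.11, -0.95 ± 0.60, 1.19 ± 0.08 and 0.82 ± 0.21. For these 3 genes all nephritic libraries lay above all healthy ones relative to CD3. The same held for Lck, Cd4, Cd28, Cd5, Cd6, Il2ra, Klrb1c, Il2rb, Gzmb and Cd3e, the last being part of the CD3 mean. For Lef1 and Cd3d all nephritic libraries lay below all healthy ones. Foxp3 stood at -3.04 ± 0.44, -4.37 ± 0.49, -1.73 ± 0.19 and -2.29 ± 0.40, and Il2ra at -2.69 ± 0.68, -3.18 ± 0.80, -1.03 ± 0.37 and -0.86 ± 0.27. The nephritic libraries of Foxp3 lay above the healthy ones within each sort, but not across the sorts.

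Lef1 moved the other way relative to CD3, from 1.14 ± 0.40 and 1.50 ± 0.21 in the healthy CD103+ and CD11b+ groups to -0.23 ± 0.46 and 0.06 ± 0.30 in the nephritic ones. Cd8b1 stood apart in healthy CD103+ libraries, at -0.16 ± 0.11 against -1.33 ± 0.11, -1.33 ± 0.34 and -1.52 ± 0.14 in the other groups, and Cd8a did likewise, at -0.77 ± 0.14 against -1.87 ± 0.14, -1.48 ± 0.38 and -2.04 ± 0.21. Cd4 stood at -0.50 ± 0.23, -0.47 ± 0.11, 0.07 ± 0.17 and 0.21 ± 0.22. Klrd1 was higher in CD11b+ than CD103+ libraries in health (0.69 ± 0.19 against -1.45 ± 0.37) and in nephritis (0.06 ± 0.25 against -0.995 ± 0.09). For Klrk1 the order was reversed, at -0.67 ± 0.32 against 0.64 ± 0.24 in health and -0.22 ± 0.29 against 1.43 ± 0.23 in nephritis.

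**Figure D4:**
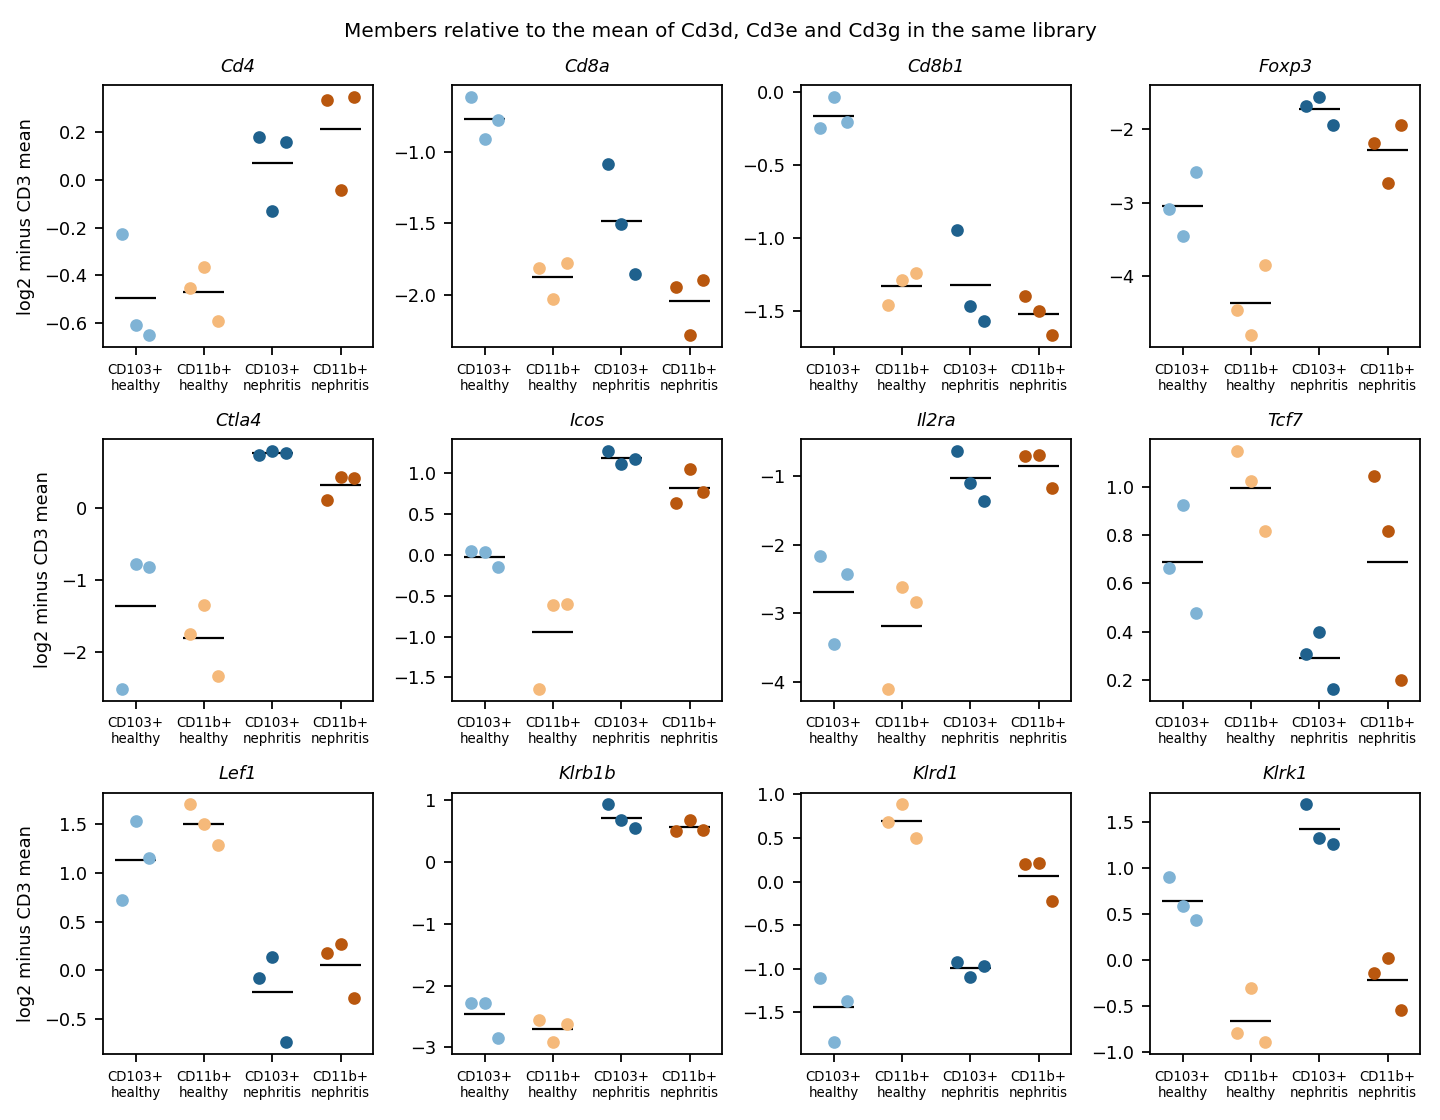
Log2 value of 12 members minus the mean log2 value of Cd3d, Cd3e and Cd3g in the same library. Points are libraries and lines are the means of 3; each panel has its own axis. Cd4, Ctla4, Icos, Il2ra, Foxp3 and Klrb1b are higher in the nephritic groups, Lef1 is lower, and Klrd1 and Klrk1 separate the sorts in opposite directions.

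Other genes of T cell receptor signalling, from a list of 26 of which 25 were tested, were higher in healthy CD11b+ than CD103+ cells in 22 cases and lower in 0, against 25.4% of all genes higher and 24.5% lower. In CD103+ cells 21 rose in nephritis and 0 fell, against 34.6% and 27.8% of all genes. In CD11b+ cells 4 rose and 3 fell, against 20.1% and 15.8% of all genes, so the list was not called more often there than genes in general. Between the nephritic subsets 6 were higher and 4 lower in CD11b+ cells, against 9.66% and 8.21% of all genes. The response of CD11b+ cells was lower for 17, against 17.7% of all genes. The constant chain of the receptor beta subunit, Trbc2, averaged 14.3 ± 3.83, 66.0 ± 6.45, 30.7 ± 4.75 and 37.1 ± 6.92 CPM (SD, n = 3) in the 4 groups, falling in nephritic CD11b+ cells (-0.84 ± 0.20, limma adjusted p = 0.00578) as did the adaptor Skap1 (-0.93 ± 0.18). The phosphatase Ptpn22, which restrains receptor signalling, rose in CD103+ cells (1.97 ± 0.15; 0.31 and not called with leukocyte scaling), as did the adaptor Sh2d2a (1.98 ± 0.23; 0.33 and not called). Tespa1, which is needed for thymocyte receptor signalling, rose there too (1.94 ± 0.25; 0.29 and not called) and was lower in nephritic CD11b+ than CD103+ cells (-1.46 ± 0.25, limma adjusted p = 0.000745). Several genes of this list act in myeloid cells as well, such as Lcp2, Fyb and Malt1, and these 3 rose in nephritic CD11b+ cells by 0.70 ± 0.20, 0.71 ± 0.22 and 1.12 ± 0.19 and were higher there than in nephritic CD103+ cells by 1.10 ± 0.20, 1.95 ± 0.22 and 1.09 ± 0.19. Under leukocyte scaling the list had 0 higher and 8 lower in CD103+ cells.

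Of 27 other NK cell genes 20 were tested. Between the healthy subsets 17 were higher in CD11b+ cells and 0 lower, and in CD103+ cells 19 rose in nephritis and 0 fell, where 25.4% and 34.6% of all genes were called higher. In CD11b+ cells 3 rose and 2 fell, against 20.1% and 15.8% of all genes, which is no more than among genes in general. Between the nephritic subsets 5 were higher and 3 lower in CD11b+ cells, against 9.66% and 8.21% of all genes. The response of CD11b+ cells was lower for 16, against 17.7% of all genes. Xcl1, the chemokine that XCR1 on cDC1 recognises, averaged 1.64, 8.37, 14.8 and 2.63 CPM in the 4 groups. It rose in CD103+ cells (3.27 ± 0.44, limma adjusted p = 2.54e-05; 1.62 and called with leukocyte scaling) and fell in CD11b+ cells (-1.64 ± 0.44, limma adjusted p = 0.011), and its response had the largest difference among the named genes of this list (-4.91 ± 0.63, limma adjusted p = 0.000258). Cd226, an activating adhesion receptor, averaged 8.38, 20.6, 50.1 and 17.3 CPM and rose in CD103+ cells (2.75 ± 0.32). Il18rap, a chain of the interleukin-18 receptor, rose in CD103+ cells (3.08 ± 0.35) and in CD11b+ cells (1.57 ± 0.35), as did the granzyme Gzmk (2.40 ± 0.44 and 1.92 ± 0.44). The adaptor Sh2d1b2 (58.3 and 43.5 CPM) and the receptor Cd244 (297 and 369 CPM) were higher in healthy and nephritic CD11b+ cells than in CD103+ cells (1.15 and 2.96 CPM, and 48.2 and 138 CPM). In nephritic CD11b+ libraries Cd244 alone lay above the mean summed level of the NK cell members, 298 CPM. In the other groups Cd244 lay below that sum. The sum averaged 96.1 CPM in healthy CD103+, 418 in healthy CD11b+ and 347 in nephritic CD103+ libraries. Which cells made Cd244 was not tested. Fasl, the death ligand, rose in CD103+ cells (1.65 ± 0.24; -0.01 with leukocyte scaling). Of the Klrb1 copies, Klrb1a averaged 0.252, 16.8, 1.76 and 8.87 CPM and was higher in healthy CD11b+ than CD103+ cells (6.21 ± 0.50; 5.56 without healthy CD103+ replicate 3), while Klrb1f averaged 0.222, 0.914, 4.23 and 9.28 CPM and rose in nephritic CD11b+ cells (3.99 ± 0.97, limma adjusted p = 0.00618; 2.88 and 4.82 without healthy CD11b+ replicates 1 and 2).

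Of 10 other innate lymphoid cell genes 5 were tested, and 1 was higher and 1 lower in CD103+ cells in nephritis, against 34.6% and 27.8% of all genes, which is no more than among genes in general. Il18r1, the partner of Il18rap, rose in CD103+ cells (1.59 ± 0.23; -0.07 with leukocyte scaling), and Il17rb, a receptor for interleukin-25, fell there (-1.54 ± 0.42). Zbtb16, the factor PLZF, was higher in healthy CD11b+ than CD103+ cells (2.12 ± 0.79, limma adjusted p = 0.0388; 0.80 and not called with leukocyte scaling). That call ended without healthy CD103+ replicate 2 or 3 (2.13 and 1.28), without any 1 of the healthy CD11b+ replicates 1, 2 and 3 (2.22, 2.19 and 1.96) and without nephritic CD11b+ replicate 2 or 3 (2.12 each).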

How the data were processed

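RNA was measured by 50-base single-read sequencing of SMARTer libraries made with 12 PCR cycles, per the labels' protocols. The authors deposited 1 table of log2 values for 12 libraries and 26281 lines, of which 160 repeats were dropped. The deposited log2 values are reads per 1000000 scaled reads, with 0.5 reads added to each gene, since whole reads came back within 0.05 for every value. The submitters' processing notes name STAR 2.0.4b, Subread, featureCounts 1.4.5 and edgeR. The genome build and the strand setting are not given in the sources used here. Gene positions came from GENCODE M21, which held 26004 of the 26121 genes, and promoters from RefSeq, which held 32 of the 41 members.

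Every value was fitted with limma 3.58.1 in R 4.3.3, as 1 mean per group over the 12 libraries with trended, robust variance, two-sided and without a replicate block. Tested were 14180 genes at 1 CPM or more in at least 3 libraries, and 11941 were not tested. p-values were adjusted by Benjamini-Hochberg. Which libraries came from the same mouse is not given. Python 3.11.15 with numpy 2.4.6, pandas 2.3.3 and matplotlib 3.10.9 did the rest.

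The members and gene lists were chosen with earlier results of these data known. Besides every member, the genes named were up to 4 called genes with the smallest adjusted p per list and comparison, 3 per set for the difference of responses, and the 6 non-members most like each set. Unnamed gene models and T cell receptor and immunoglobulin genes were left out when the non-members were ranked. Alternatives covered pseudocounts of 1 and 4 CPM, filters, 3 scalings, array weights, the groups fitted, replicate blocks, limma voom on the recovered reads and leaving out each library. One gene of the innate lymphoid list is not reported here.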

Additional observations from a re-analysis of the deposited data

Results flagged for a closer look

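For 38 of the 41 members the response to nephritis differed between the subsets in the limma model, with an adjusted p under 0.05 for the difference itself. Values are the log2 response of CD11b+ cells minus that of CD103+ cells. Among receptor and signalling members of T cells they were Cd3d (-1.90), Cd3e (-2.17), Cd3g (-1.80), Cd247 (-2.05), Lat (-2.41), Lck (-1.52) and Zap70 (-3.17). The coreceptors stood at Cd4 (-1.84), Cd8a (-1.42) and Cd8b1 (-0.98), and costimulatory members at Cd28 (-2.13), Icos (-1.40) and Ctla4 (-1.96). Transcription factors and surface proteins of T cells gave Tcf7 (-1.87), Lef1 (-2.04), Bcl11b (-2.04), Il7r (-1.93), Cd5 (-2.10), Cd6 (-1.29), Cd2 (-2.05) and Thy1 (-2.16). Lectin and other receptors of NK cells gave Ncr1 (-3.37), Klrb1b (-1.87), Klrb1c (-2.49), Klrd1 (-3.04), Klrk1 (-2.30), Klre1 (-3.90) and Il2rb (-1.61). The NK cell factors, granule members and kinase gave Eomes (-4.12), Tbx21 (-5.83), Gzma (-1.84), Gzmb (-1.92), Prf1 (-3.14), Nkg7 (-2.15) and Txk (-2.03). The shared members stood at Rora (0.97), Il1rl1 (-1.17) and Cxcr6 (-2.49), and Rora was the member whose response was higher in CD11b+ cells.

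Among all genes 35.4% were called in this comparison. The call of Tbx21 is not independent of the filter. Calls that ended when 1 library was left out were those of Ctla4 in 7 fits (-1.78 to -2.07), Cd8b1 in 4 (-0.86 to -0.91), Eomes in 3 (-3.74 to -3.80) and Il1rl1 without nephritic CD11b+ replicate 3 (-1.01). The call of Ctla4 was kept, at a smaller difference (-1.325), without healthy CD103+ replicate 1, and those of Tbx21 and Eomes moved to -6.55 and -3.43 without its replicate 2 and to -5.03 and -5.22 without its replicate 3. With 3 libraries a group, no library was tested as standing apart within a group.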

How the results depend on the processing

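Leukocyte scaling moved the results most. In CD103+ cells it turned the T cell count from 20 called to 13 (5 higher and 8 lower), the NK cell count from 13 to 4, and that of other T cell receptor genes to 8, all lower. For the difference of responses it gave 3 T cell members, 8 NK cell members and 6 other receptor genes (4 higher). It reversed, in CD103+ cells, Klrd1 (-0.15), Cxcr6 (-0.23), Tcf7 (-1.004), Lat (-0.91), Zap70 (-0.0263), Nkg7 (-0.42), Cd3d (-0.93), Lcp2 (-0.25), Gzma (-1.35), Cd3g (-0.80), Cd2 (-0.35), Cd8a (-1.32), Txk (-0.49), Bcl11b (-0.48), Thy1 (-0.35), Cd3e (-0.0874), Il7r (-0.21), Cd247 (-0.06325), Fasl (-0.005055), Il18r1 (-0.06775), Lck (-0.0307) and Cd4 (-0.04003). Between the healthy subsets it reversed Cd8b1 (-0.41), Icos (-0.17), Cd8a (-0.34) and Klrk1 (-0.55), and in the difference of responses Cd8b1 (0.33), Cd6 (0.01825) and Il1rl1 (0.15, and 0.11 with a pseudocount of 4 CPM). The cause was not tested.

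In CD11b+ cells the other NK cell genes had 8 calls (3 higher and 5 lower) with pseudocounts of 1 and 4 CPM, with only the groups compared and with limma voom. The other receptor genes there, 4 higher and 3 lower as reported, turned to mostly lower calls with quantile normalization (5 calls, 1 higher and 4 lower), with leukocyte scaling (7 calls, 1 and 6) and without nephritic CD11b+ replicate 3 (5 calls, 2 and 3). They had 11 calls (6 higher and 5 lower) with array weights and with only the groups compared, and 5 to 10 with 1 library left out. Between the nephritic subsets 1 T cell member was called with array weights and 3 with only the groups compared. The 254 gene results kept direction and call with median-centred libraries.

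With 1 library left out, calls ran from 17 to 20 T cell and 13 to 13 NK cell members in CD103+ cells, 9 to 18 and 6 to 11 in CD11b+ cells, 21 to 23 and 14 to 14 between the healthy subsets, 0 to 1 and 2 to 3 between the nephritic subsets, and 19 to 23 and 13 to 14 for the difference of responses.

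Deviations from the group means correlated between same-numbered libraries of the subsets at -0.014, 0.000 and -0.154 in health and 0.066, 0.052 and 0.151 in nephritis. Between libraries of different number they ran from -0.100 to 0.115 in health and from -0.136 to 0.074 in nephritis. With so few libraries these values cannot tell whether the numbers mark the mouse. A replicate block as a fixed term gave 22 T cell and 14 NK cell calls between the healthy subsets, 0 and 2 between the nephritic subsets, and 20 and 14 for the difference of responses. Klre1 between the nephritic subsets (-1.47, limma adjusted p = 0.0566) and Ctla4 in the difference of responses (-1.96, limma adjusted p = 0.0577) no longer passed. A random block changed no call.

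Depth limits Tbx21 and Eomes, whose healthy CD103+ libraries held 0 to 13 reads. Tbx21 also passed the filter only through the healthy CD11b+ libraries, so its calls that involve that group, the difference of responses included, are not independent of the filter.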

Other observations

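Over the 12 libraries, the non-members whose log2 values ran most like the mean of the T cell members were Tle4 (Pearson r = 0.985), Gimap7 (0.980), Ms4a4b (0.980), Kif21b (0.979), Was (0.974) and Sit1 (0.974). The non-members most like the mean of the NK cell members were Ctsw (0.980), Lpxn (0.972), Fasl (0.969), Ywhah (0.962), Prkx (0.960) and Nrm (0.959). The 12 points share 4 groups, their tubule share and their leukocyte level, so these values are a description with no test.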
